A study of Rattus norvegicus with 12 samples.

Results

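The genes described here are 10 signals and effectors of the stromal niche of the gut wall, chosen by symbol from the 18749 genes of a rat intestine count table: Bmp2, Bmp4, Grem1, Rspo3, Wnt2b, Wnt5a, Foxl1, Shh, Ihh and Gli1. All 10 were found, and all 10 passed the filter on low counts. The study concerns the intestine after removal of the colon, and polyadenylated RNA was sequenced from 12 samples of wild-type (WT) rat intestine, 4 in each of 3 groups. Samples of postSTC are postoperative (replicates 1, 2, 5 and 7), those of preSTC preoperative (replicates 1, 5, 7 and 9), and those of preCTC precede a sham operation (replicates 1, 5, 7 and 9). The labels explain neither STC nor CTC and give no age, sex, strain or time. Whether replicates came from separate animals is not stated, and p-values then cover only the variation among these samples, which may be technical. A group taken following the sham operation is not analysed here, and therefore surgery and elapsed time cannot be told apart.

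As known mostly from mice, the intestinal crypt is kept by signals that pass between the epithelium and the stroma under it. The epithelium sends the hedgehog ligands Ihh and Shh to stromal cells, where the transcription factor Gli1 is both an effector and a target of the pathway. Stromal cells return Wnt ligands and R-spondins, which sustain dividing crypt cells, and bone morphogenetic proteins (BMPs), which favour differentiation towards the lumen. Gremlin 1 (Grem1) is a secreted BMP antagonist made by stromal cells at the crypt base, and Foxl1 is a transcription factor that marks the stromal telocytes lining the epithelium. Bmp2 is also made by epithelial cells near the lumen.

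Promoter sequences were held for 5 of the 10 genes (Bmp4, Grem1, Rspo3, Wnt2b and Wnt5a) in RefSeq's GRCr8 table. The sequences of Rspo3 and Wnt5a are shown because each of these genes passed the test in a comparison below. Each is the 250 bases before the start site, on the plus strand, at chr1:30112279-30112528 for Rspo3 and chr16:3703415-3703664 for Wnt5a, and capitals mark a GC box (GGGCGG, either strand).
Rspo3: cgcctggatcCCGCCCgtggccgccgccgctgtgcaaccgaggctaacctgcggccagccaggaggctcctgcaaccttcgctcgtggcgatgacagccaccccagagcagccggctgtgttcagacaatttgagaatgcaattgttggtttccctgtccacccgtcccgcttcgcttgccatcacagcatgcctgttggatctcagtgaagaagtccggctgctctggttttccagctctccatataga
Wnt5a: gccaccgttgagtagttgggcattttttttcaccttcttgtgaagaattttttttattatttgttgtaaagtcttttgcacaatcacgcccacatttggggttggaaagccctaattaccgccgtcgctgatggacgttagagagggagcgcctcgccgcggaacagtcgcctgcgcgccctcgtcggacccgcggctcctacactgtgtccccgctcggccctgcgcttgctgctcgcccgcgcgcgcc
The GC box was found 1 time before Rspo3, 1 time before Wnt2b, 3 times each before Bmp4 and Grem1 and not before Wnt5a, and 30.5% of 33469 promoters of the same length hold it. A GLI site (GACCACCCA, in 0.338% of these promoters), a TCF site (CTTTGAT, in 3.15%) and a TATA box (TATAAA, in 12.9%) were searched on both strands, and these letters are not in the 5 windows.

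Libraries held 30095656 to 39374682 counts, and 2 of them stood apart. In postSTC7, 42.9% of the counts came from 9 accessory gland genes, the makers of seminal proteins such as Semg1, against 0.0178 to 0.0243% in the other postSTC libraries, 0.0195% in preSTC7 and less than that in each remaining library. The library preCTC5 had 1.44 CPM (counts scaled to a common library size, corrected by TMM) of the distal bowel gene Hoxb13, against 315 to 445 CPM in the other preCTC libraries, and 3108 CPM of Car1, a carbonic anhydrase of the colon, against 226 to 494 CPM. The ileal bile acid genes Fabp6 and Slc10a2 together reached 1564 to 4058 CPM in postSTC, 4149 to 5062 CPM in preSTC and 3.87 to 6.89 CPM in preCTC, and the epithelial markers were present in every library.

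The groups also differed in markers of gut region. Of 6 distal bowel markers (Hoxa13, Hoxb13, Hoxd13, Car1, Atp12a and Scnn1b), 5 were called higher in postSTC against preSTC, with a median log2 fold change of 8.17, and 6 were called lower in preSTC against preCTC, with a median of -10.00. Their summed level was 149 to 476 CPM in postSTC, 4.86 to 32.1 CPM in preSTC and 1388 to 3176 CPM in preCTC. The highest sum, 3176 CPM, was that of preCTC5, where Car1 alone made 3108 CPM. By the mean log2 CPM of the 6 markers, preCTC5 stood at 3.55, below the postSTC libraries (4.26 to 5.77). The other preCTC libraries stood at 6.75 to 7.14. Hoxb13 alone stood at 42.2 to 125 CPM in postSTC and at 0.0560 to 0.311 CPM in preSTC. In postSTC against preCTC, 2 of the 6 were lower (median -1.85). Of the 2 ileal genes, 1 was lower in postSTC against preSTC and both were higher in postSTC and in preSTC than in preCTC. Gut region and the groups cannot be told apart, and its part in the members' values was not tested. Members' calls that changed without postSTC7 or preCTC5 are given with and without them, as are calls of named pathway genes that changed without postSTC7.

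Stromal markers moved with the groups. Of 15 fibroblast markers, 7 were called higher in postSTC against preSTC, and their summed level was 3496 to 5958 CPM in postSTC, 2766 to 3469 CPM in preSTC and 7153 to 10397 CPM in preCTC. Of 11 smooth muscle markers, 6 were called higher in that comparison, with sums of 6949 to 10589 CPM in postSTC, 3897 to 5891 CPM in preSTC and 11406 to 19180 CPM in preCTC. Of 10 epithelial markers, 1 (Vil1) was called lower, with sums of 7345 to 14793 CPM in postSTC, 13744 to 17128 CPM in preSTC and 10482 to 14774 CPM in preCTC. None of the fibroblast, smooth muscle and epithelial markers was at 0 in any library. In these bulk samples a change in the number of cells of a type and a change in RNA per cell cannot be told apart. The part of these markers in the members' values was not tested. A fit with the fibroblast score as a covariate is given below, but it cannot test that part, because the score does not overlap between the groups.

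**Figure D1:**
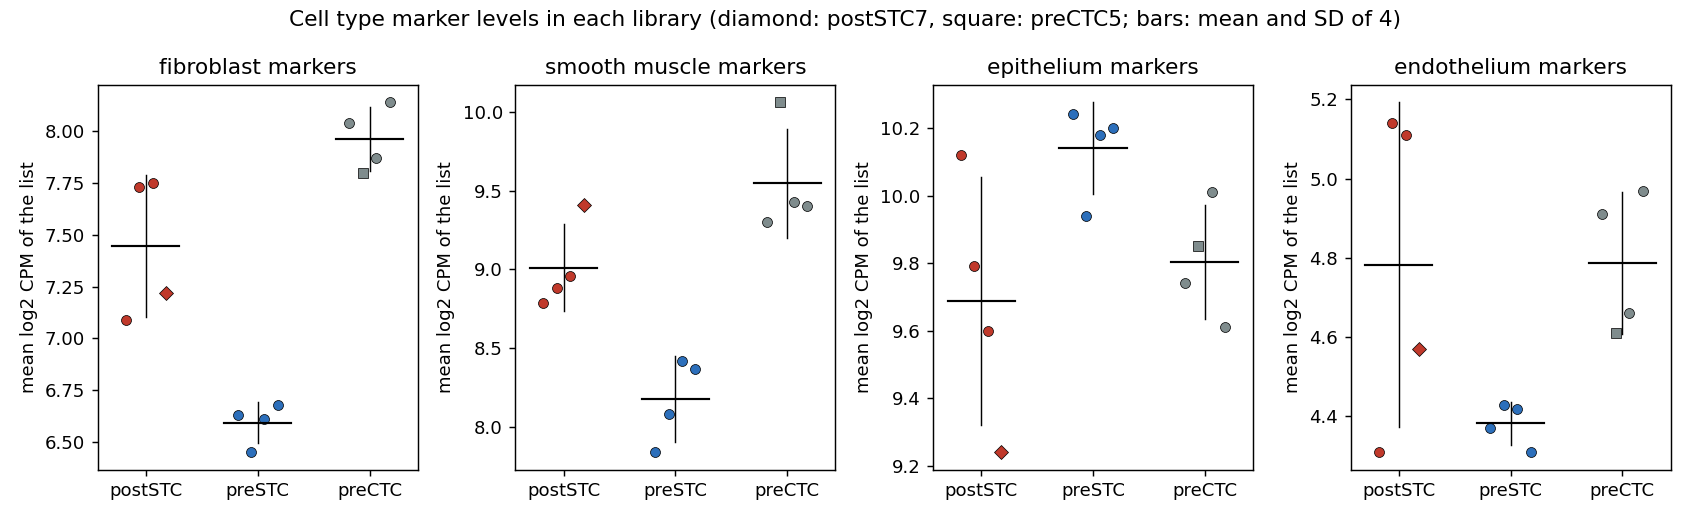
Mean log2 CPM of the tested markers of 4 cell types in each library (y axis), by group (x axis). Points are libraries (diamond, postSTC7; square, preCTC5), the line is the mean of 4 and the vertical bar its SD. The fibroblast scores run from 7.09 to 7.75 in postSTC, from 6.45 to 6.68 in preSTC and from 7.80 to 8.14 in preCTC, so that postSTC lies between the other groups.

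How niche signals differed after the operation was the question of postSTC against preSTC. Rspo3, a secreted R-spondin that strengthens Wnt signalling through Lgr receptors, rose by 1.46 ± 0.38 on the log2 scale (SE), and was the member that passed the test in edgeR's quasi-likelihood fit (Benjamini-Hochberg adjusted p = 0.0232). The other 9 members did not pass it, among them Bmp4, Wnt2b, Foxl1 and Ihh with negative log2 fold changes. Shh passed the filter on low counts only through libraries of postSTC and preCTC. Unless 10 members are named, the counts that follow leave out Shh. Of the other 9 members, 1 was called higher, where 11.1% of all 15704 tested genes were, and 0 were called lower, where 6.90% were. Before adjustment, edgeR had 3 of the 9 higher and 0 lower at p under 0.05. DESeq2 had 3 higher and 0 lower after adjustment, and called 3889 of all genes in either direction. The same comparison showed 5 of 6 distal bowel markers, 7 of 15 fibroblast markers and 6 of 11 smooth muscle markers higher. The libraries of the groups did not overlap for 4 of the 9 members, all of them higher, beside 11.9% of all tested genes that were higher without overlap, 10.2% that were lower and 22.1% in either direction. This holds in CPM, where postSTC7 has a TMM factor of 0.568. In the deposited FPKM, scaled by gene length and library total, postSTC7 lay below every preSTC library for Bmp2, Wnt5a and Gli1. Its values were 5.12, 1.02 and 0.602 FPKM, against preSTC minima of 7.80, 1.10 and 0.706 FPKM. The median log2 fold change was 0.36 over the 9 members and 0.043 over all tested genes.

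Rspo3 stood at 2.72, 4.76, 3.09 and 8.64 CPM in postSTC (libraries in the order 1, 2, 5, 7, as in all values that follow), against 1.31, 1.84, 2.48 and 1.32 CPM in preSTC (in the order 1, 5, 7, 9, as for preCTC). Each postSTC library was above every preSTC library, and postSTC7, the library with the accessory gland transcripts, was the highest. Without postSTC7 the log2 fold change of Rspo3 was 1.01 (edgeR's adjusted p = 0.0455). The call was lost without preSTC1, preSTC5 or preSTC9 (edgeR's adjusted p = 0.0694, 0.0533 and 0.0657). With the replicate number as a block, edgeR's adjusted p of Rspo3 was 0.0315 when all 12 libraries entered. It was 0.156 when only the 8 postSTC and preSTC libraries did. Without the block, the fit of these 8 libraries did not call Rspo3 either. In preCTC, Rspo3 stood at 2.77, 3.17, 4.76 and 2.94 CPM, within the range of postSTC and above every preSTC library.

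**Figure D2:**
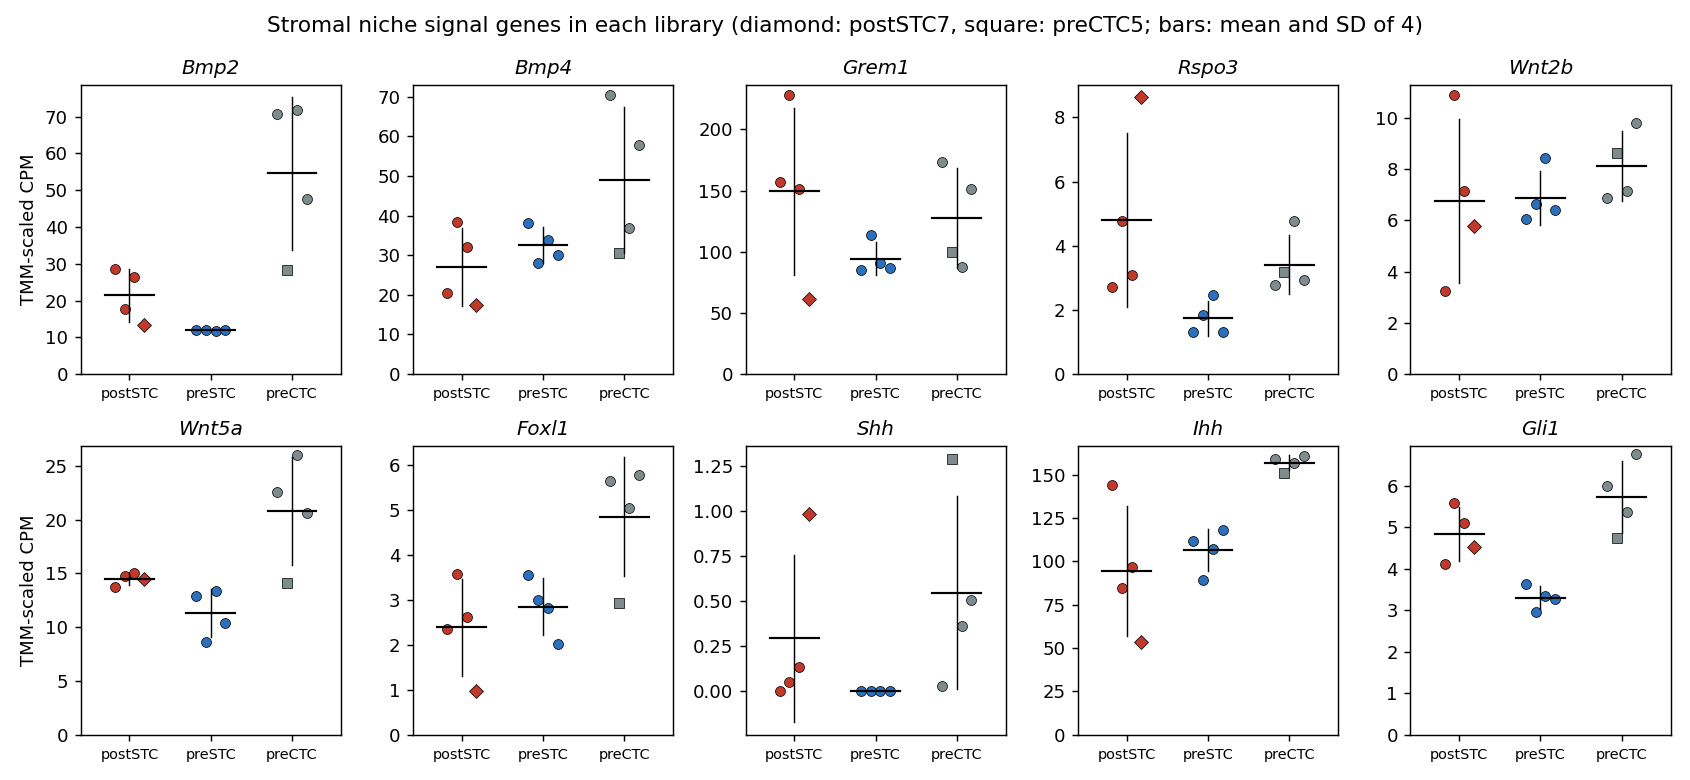
TMM-scaled CPM of the 10 genes (y axis, 1 scale per gene) in each library, by group (x axis). Points are libraries (diamond, postSTC7; square, preCTC5), the line is the mean of 4 and the vertical bar its SD. On this scale Bmp2, Rspo3, Wnt5a and Gli1 have every postSTC library above every preSTC library, and Shh is at 0 in all preSTC libraries.

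Among the BMP ligands, Bmp2 and Bmp4 had log2 fold changes of opposite sign after the operation. Bmp2 stood at 28.5, 17.7, 26.5 and 13.3 CPM in the postSTC libraries, against 12.1, 11.9, 11.8 and 12.1 CPM in the preSTC libraries. The preSTC libraries were nearly level, with an SD of 0.173 CPM, and each postSTC library lay above them. The log2 fold change of Bmp2 was 0.85 ± 0.29 (SE), short of the threshold in edgeR (adjusted p = 0.0633, or 0.0276 without postSTC7 and 0.0280 without preCTC5), and DESeq2 called it higher (adjusted p = 0.0267). Bmp4 stood at 20.5, 38.5, 32.0 and 17.4 CPM in postSTC, against 38.2, 28.1, 33.9 and 30.1 CPM in preSTC. Its groups overlapped, and its log2 fold change was -0.26 ± 0.29 (± SE, edgeR's adjusted p = 0.563), with a 95% interval of -0.89 to 0.37.

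The antagonist Grem1 stood at 157, 228, 151 and 61.5 CPM in postSTC, against 85.3, 114, 90.7 and 87.1 CPM in preSTC. The first 3 postSTC libraries were above all preSTC libraries, and postSTC7 was below them. Its log2 fold change was 0.66 ± 0.33 (± SE, edgeR's adjusted p = 0.180), or 0.91 without postSTC7, where Grem1 was called higher (edgeR's adjusted p = 0.0208). Set against Bmp4 within each library, Grem1 counts were 7.65, 5.92, 4.73 and 3.53 times those of Bmp4 in postSTC, 2.23, 4.07, 2.68 and 2.89 times in preSTC and 2.46, 3.26, 2.36 and 2.62 times in preCTC. This ratio, which library scaling does not touch, was higher in every postSTC library than in every preCTC library. It overlapped between postSTC and preSTC through postSTC7 and preSTC5. Grem1 over Bmp2 was 4.61 to 12.9 in postSTC, 7.04 to 9.62 in preSTC and 1.21 to 3.51 in preCTC, so that on this ratio preCTC lay below both other groups.

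Per length, the rank of the BMP ligands differed between groups. The deposited FPKM (fragments scaled by gene length and library total) of Bmp2 was 2.63, 0.871, 1.57 and 1.45 times that of Bmp4 in the postSTC libraries, 0.601, 0.801, 0.658 and 0.763 times in preSTC and 1.91, 1.76, 3.69 and 1.56 times in preCTC. Bmp2 was thus above Bmp4 in 3 of 4 postSTC libraries, in 0 of 4 preSTC libraries and in 4 of 4 preCTC libraries. This ratio was chosen after the levels had been seen and is given with no test.

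**Figure D3:**
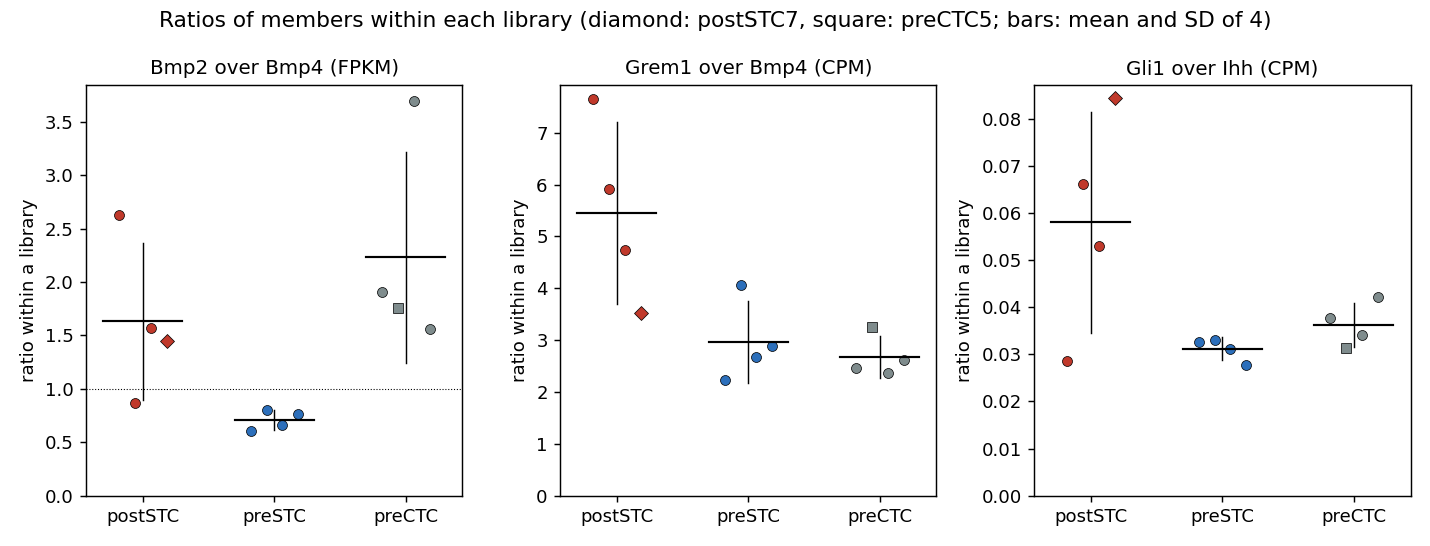
Ratios of members within each library (y axis) by group (x axis), for Bmp2 over Bmp4 in FPKM, Grem1 over Bmp4 in CPM and Gli1 over Ihh in CPM. Points are libraries (diamond, postSTC7; square, preCTC5), the line is the mean of 4 and the vertical bar its SD. Bmp2 over Bmp4 is below 1 in all preSTC libraries (0.601 to 0.801) and above 1 in all preCTC libraries (1.56 to 3.69).

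Of the Wnt ligands, Wnt5a, which acts largely outside the β-catenin pathway, stood at 13.7, 14.8, 15.0 and 14.5 CPM in postSTC, against 12.9, 8.65, 13.4 and 10.4 CPM in preSTC. Every postSTC library was above every preSTC library by a narrow margin, and the log2 fold change of 0.36 ± 0.19 did not pass the test (± SE, edgeR's adjusted p = 0.206). Wnt2b, a stromal ligand of the β-catenin pathway, stood at 3.23, 10.9, 7.16 and 5.78 CPM in postSTC, against 6.05, 6.63, 8.43 and 6.42 CPM in preSTC. The postSTC libraries spread on either side of preSTC. The log2 fold change of Wnt2b was -0.02 ± 0.30 (± SE, edgeR's adjusted p = 0.967), with a 95% interval of -0.67 to 0.63.

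The telocyte factor Foxl1 stood at 2.36, 3.57, 2.63 and 0.985 CPM in postSTC, against 3.55, 3.00, 2.81 and 2.02 CPM in preSTC. The groups overlapped, with the lowest value in postSTC7 (log2 fold change -0.24 ± 0.36, ± SE, edgeR's adjusted p = 0.673). The log2 fold change of Foxl1 lay between -0.50 and 0.00 when single libraries were left out, and was 0.00 without postSTC7.

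In the hedgehog pathway, the epithelial ligand Ihh stood at 144, 84.6, 96.6 and 53.7 CPM in postSTC, against 112, 89.3, 107 and 118 CPM in preSTC. Its groups overlapped, and postSTC7 was the lowest library (log2 fold change -0.17 ± 0.22, ± SE, edgeR's adjusted p = 0.635). The effector Gli1 stood at 4.11, 5.59, 5.11 and 4.52 CPM in postSTC, against 3.64, 2.95, 3.35 and 3.28 CPM in preSTC. All 4 postSTC libraries were above all 4 preSTC libraries. The log2 fold change of Gli1 was 0.55 ± 0.18 (SE), just short of the threshold in edgeR (adjusted p = 0.0522), and DESeq2 called it higher (adjusted p = 0.0117). With the replicate block edgeR's adjusted p of Gli1 was 0.155 in the fit of 12 libraries. Gli1 over Ihh was 0.0285, 0.0662, 0.0529 and 0.0843 in postSTC and 0.0278 to 0.0331 in preSTC, so 3 of 4 postSTC libraries had more Gli1 per Ihh than any preSTC library.

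Shh had 0, 2, 5 and 22 reads in the postSTC libraries, against 0 in each of the 4 preSTC libraries and 1, 51, 14 and 21 reads in the preCTC libraries. It was near the limit of detection everywhere, and most of its postSTC reads lay in postSTC7. Against a floor of 3 counts summed over preSTC, or 0.0206 CPM, the summed Shh reads of postSTC stood 10.7-fold higher, and 3.12-fold higher without postSTC7. The floor covers preSTC alone, and postSTC1 had 0 reads like each preSTC library, so these folds are not lower bounds. Shh passed the count filter only through postSTC7 and 3 preCTC libraries.

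The comparison of preSTC against preCTC set the groups taken before any operation side by side, and it shares preSTC with the comparison above. Bmp2, Wnt5a and Gli1 were lower in preSTC, and 0 members were called higher in edgeR (0 before adjustment at p under 0.05, 0 by DESeq2). Beside this, 6 of 6 distal bowel markers, 13 of 15 fibroblast markers and 10 of 11 smooth muscle markers were lower in preSTC, and both ileal genes were higher. All 9 members other than Shh had a negative log2 fold change, with a median of -0.77 beside -0.023 over all tested genes. The 3 of these 9 called lower stand beside 19.6% of all genes called lower, 19.1% called higher and 38.7% in all, and the groups did not overlap for 5 of the 9, all lower, beside 22.5% of all genes (and 45.0% in either direction). Without postSTC7, which here only enters the shared spread, 6 of the 9 were called lower, the further 3 being Rspo3, Foxl1 and Ihh (edgeR's adjusted p = 0.0195, 0.0347 and 0.0132). That fit called 7258 of 15896 tested genes in either direction.

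Bmp2 showed the widest gap of these called members. It stood at 12.1, 11.9, 11.8 and 12.1 CPM in preSTC, against 70.8, 28.4, 71.9 and 47.5 CPM in preCTC, with preCTC5 the lowest of its group. The log2 fold change of Bmp2 was -2.19 ± 0.30 (± SE, edgeR's adjusted p = 1.94e-04). Wnt5a stood at 12.9, 8.65, 13.4 and 10.4 CPM in preSTC, against 22.6, 14.1, 26.0 and 20.6 CPM in preCTC. Again preCTC5 was the lowest of its group, and Wnt5a was lower in preSTC by a log2 fold change of -0.88 ± 0.19 (± SE, edgeR's adjusted p = 0.00346). Gli1 stood at 3.64, 2.95, 3.35 and 3.28 CPM in preSTC, against 5.99, 4.74, 5.37 and 6.77 CPM in preCTC, with no overlap (log2 fold change -0.79 ± 0.18, ± SE, edgeR's adjusted p = 0.00459). The calls of Bmp2, Wnt5a and Gli1 held whichever single library was left out, with edgeR's adjusted p at most 0.00121, 0.0144 and 0.0169. Ptch1, the hedgehog receptor and itself a target of Gli factors, was also lower in preSTC, with 42.8 ± 2.61 CPM in preSTC and 63.1 ± 10.2 CPM in preCTC (SD, n = 4, edgeR's adjusted p = 0.0133).

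Shh had no read in preSTC, and the floor of 3 counts lay 26.7-fold below its level in preCTC, with 51 of the 87 preCTC reads in preCTC5. Because Shh was tested only through the libraries where it is high, its values are a description, and its p is not given for this comparison. Ihh and Rspo3 did not overlap between the groups but did not pass the test. Ihh stood at 112, 89.3, 107 and 118 CPM in preSTC, against 159, 151, 157 and 161 CPM in preCTC (log2 fold change -0.56 ± 0.22, ± SE, edgeR's adjusted p = 0.0665). Rspo3 had a log2 fold change of -0.97 ± 0.38 (± SE, edgeR's adjusted p = 0.0625). Bmp4, Grem1, Wnt2b and Foxl1 overlapped between the groups, with log2 fold changes of -0.59, -0.44, -0.24 and -0.77.

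The comparison of postSTC against preCTC shares its libraries with both comparisons above. Bmp2 and Ihh were lower in postSTC, and 0 members were called higher in edgeR (0 before adjustment at p under 0.05, 0 by DESeq2). The 2 of the 9 members other than Shh called lower stand beside 7.37% of all tested genes called lower, 9.27% called higher and 16.6% in all. Of the 9, 1 member (Ihh) did not overlap between the groups, beside 8.60% of all genes lower without overlap, 9.54% higher and 18.1% in either direction. Bmp2 stood at 28.5, 17.7, 26.5 and 13.3 CPM in postSTC, against 70.8, 28.4, 71.9 and 47.5 CPM in preCTC, so that postSTC1 just passed preCTC5 (log2 fold change -1.34 ± 0.29, ± SE, edgeR's adjusted p = 0.00883). Ihh stood at 144, 84.6, 96.6 and 53.7 CPM in postSTC, against 159, 151, 157 and 161 CPM in preCTC (log2 fold change -0.73 ± 0.22, ± SE, edgeR's adjusted p = 0.0445). The preCTC libraries of Ihh lay close together, and the postSTC libraries were spread widely. The Ihh call lay close to the threshold and was lost in 14 of 19 alternative settings. Without preCTC5, 4 members were called lower, namely Bmp2, Bmp4, Wnt5a and Foxl1, and Ihh was not (edgeR's adjusted p = 0.0701). That fit called 2304 of all genes in either direction.

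**Figure D4:**
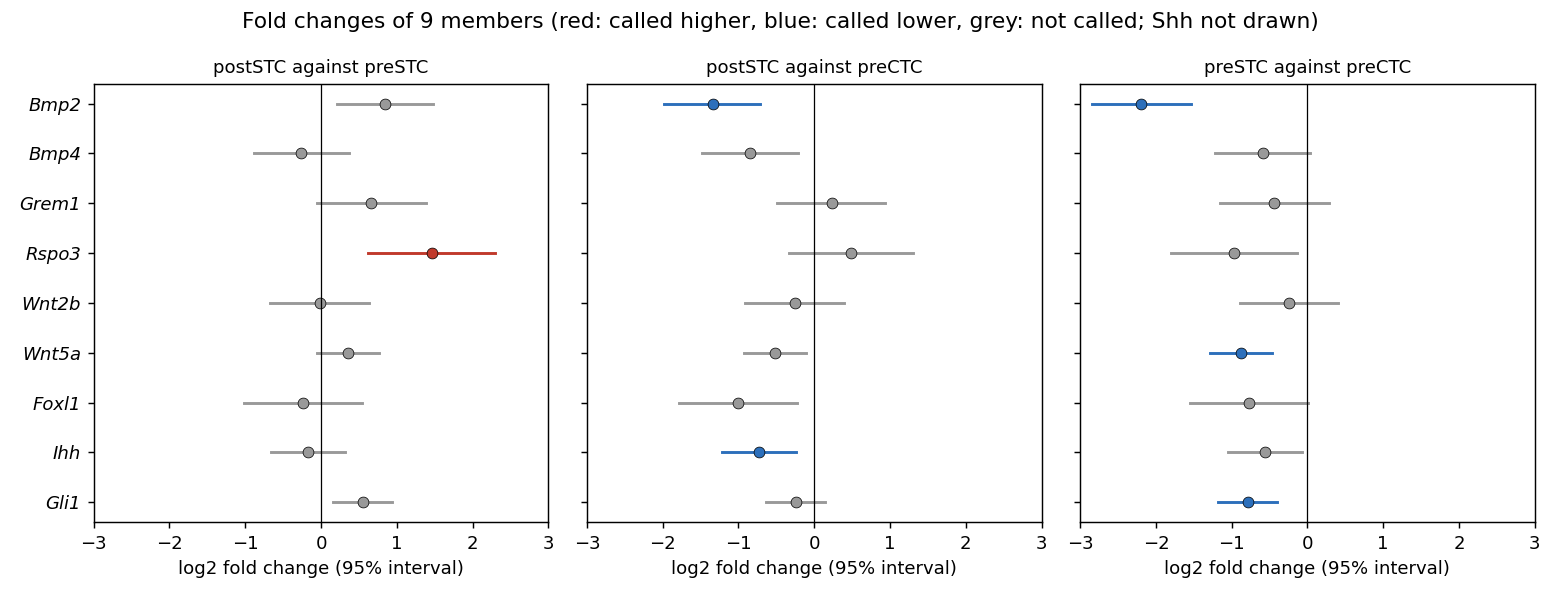
Log2 fold changes of 9 members (x axis) with their 95% intervals, 1 panel per comparison, edgeR quasi-likelihood fit of 12 libraries (red, called higher; blue, called lower; grey, not called). Shh is not drawn because all its preSTC libraries were at 0. Rspo3 is called higher in postSTC against preSTC at 1.46, and all 9 points lie below 0 in preSTC against preCTC.

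The mean of Bmp2 was 21.5 ± 7.18 CPM in postSTC, 12.0 ± 0.173 CPM in preSTC and 54.7 ± 20.8 CPM in preCTC (SD, n = 4), so that postSTC lay between the other groups. Gli1 and Wnt5a had the same order of means. Gli1 averaged 4.83 ± 0.653 CPM in postSTC, 3.30 ± 0.282 CPM in preSTC and 5.72 ± 0.867 CPM in preCTC (SD, n = 4). Wnt5a averaged 14.5 ± 0.556 CPM in postSTC, 11.3 ± 2.22 CPM in preSTC and 20.8 ± 5.01 CPM in preCTC (SD, n = 4). Their postSTC and preCTC libraries overlapped. Foxl1, Bmp4, Ihh and Wnt2b instead had their lowest mean in postSTC, but by less than the spread of their postSTC libraries against preSTC. For Foxl1, Ihh and Wnt2b this rested on postSTC7, without which their postSTC means were 2.85, 108 and 7.10 CPM (n = 3), against 2.85, 107 and 6.88 CPM in preSTC (n = 4). The postSTC mean of Bmp4 was 30.3 CPM without postSTC7 and 27.1 CPM with it, against 32.6 CPM in preSTC. With all 4 libraries, Foxl1 averaged 2.39 ± 1.07 CPM in postSTC, against 2.85 ± 0.635 CPM in preSTC and 4.85 ± 1.32 CPM in preCTC (SD, n = 4). Grem1 and Rspo3 had their highest mean in postSTC, with 149 ± 68.2 and 4.80 ± 2.71 CPM (SD, n = 4). Without postSTC7 the postSTC mean of Rspo3 was 3.52 ± 1.09 CPM (SD, n = 3), nearly level with 3.41 ± 0.915 CPM in preCTC (SD, n = 4). That of Grem1 was 179 ± 42.8 CPM (SD, n = 3), against 128 ± 40.9 CPM in preCTC (SD, n = 4).

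The order of levels per length was taken from the deposited FPKM. In postSTC it ran Ihh, Grem1, Bmp2, Bmp4, Wnt2b, Rspo3, Wnt5a, Gli1, Foxl1 and Shh, with means of 41.3 to 0.111 FPKM. Ihh was above Grem1, Bmp2 above Bmp4 and Foxl1 above Shh in 3 of 4 postSTC libraries each, and Wnt2b above Rspo3 in 2 of 4. These neighbours thus did not differ beyond their spread. In preSTC the order ran Ihh, Grem1, Bmp4, Bmp2, Wnt2b, Wnt5a, Rspo3, Gli1, Foxl1 and Shh, and Wnt5a was above Rspo3 in 2 of 4 libraries while every other neighbour kept its place in 4 of 4. In preCTC it ran Ihh, Bmp2, Grem1, Bmp4, Wnt2b, Rspo3, Wnt5a, Gli1, Foxl1 and Shh, from 76.5 to 0.351 FPKM. There Bmp2 was above Grem1, and Rspo3 above Wnt5a, in 2 of 4 libraries each, and Foxl1 above Shh in 3 of 4. Ihh thus held the highest mean FPKM of the 10 genes and Shh the lowest in all 3 groups.

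The other genes of the Wnt, BMP and hedgehog pathways were taken from 13 lists, which hold 121 further genes of the count table, 107 of them tested. In postSTC against preSTC, 24 of these 107 rose and 6 fell, or 28.0%, where 18.0% of all tested genes were called. Of all tested genes 11.1% were called higher. Without postSTC7, 23 rose and 3 fell, beside 18.3% of all genes called, and 24 of the 30 genes kept their call and direction. With the replicate block in the fit of 12 libraries, 14 rose and 4 fell, beside 11.1% of all genes called and 6.61% called higher. With the block in the fit of the 8 libraries, 1 rose, beside 0.432% of all genes called.

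Secreted Wnt antagonists had the highest median log2 fold change of the 13 lists, 1.70, with 4 of 8 rising (3 in DESeq2). Sfrp2, a secreted protein that binds Wnt ligands, stood at 13.1, 18.3, 44.0 and 57.5 CPM in postSTC, against 0.291, 0.596, 0.270 and 0.364 CPM in preSTC. Every postSTC library was above every preSTC library (log2 fold change 6.43 ± 0.57, ± SE, edgeR's adjusted p = 2.68e-04, and 0.0255 in the blocked fit of the 8 libraries). Its relatives Sfrp4 and Sfrp5 had log2 fold changes of 5.86 ± 0.68 and 3.11 ± 0.44 (± SE, edgeR's adjusted p = 6.33e-04 and 0.00155). Sfrp4 stood at 9.76, 15.7, 20.8 and 5.33 CPM in postSTC and at 0.617 to 1.25 CPM in preCTC, and was higher in postSTC than in preCTC as well (edgeR's adjusted p = 0.00135). Sfrp2 stood at 18.3 to 44.0 CPM in preCTC, within the levels of postSTC. Sfrp5 averaged 5.47 CPM in postSTC and 4.35 CPM in preCTC and was not called between them (edgeR's adjusted p = 0.613). Wif1, another Wnt-binding inhibitor, stood at 1.33, 2.00, 1.30 and 92.4 CPM in postSTC, so most of its rise lay in postSTC7. Its log2 fold change was 6.42 with postSTC7 and 2.44 without it (edgeR's adjusted p = 0.0143 and 0.00837).

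Of 9 further Wnt ligands, Wnt9a rose and Wnt3 fell. Wnt3, a ligand that Paneth cells make in mice, stood at 1.97, 7.07, 2.98 and 1.79 CPM in postSTC, against 9.52, 9.45, 9.29 and 13.7 CPM in preSTC, with no overlap (log2 fold change -1.59 ± 0.46, ± SE, edgeR's adjusted p = 0.0332, or 0.0540 without postSTC7). Wnt9a rose by 1.21 ± 0.33 (log2 units, ± SE, edgeR's adjusted p = 0.0273), and averaged 2.08 CPM in postSTC beside 2.00 CPM in preCTC. Wnt2, a stromal ligand, stood at 2.30, 3.30, 3.41 and 38.9 CPM in postSTC, and its high value was that of postSTC7 alone (log2 fold change 1.68, or -0.32 without postSTC7, edgeR's adjusted p = 0.160 and 0.523). Rspo2 and Wnt7b, named here after their values were seen, had the same pattern, with 9.09 and 12.1 CPM in postSTC7 and at most 0.905 and 0 CPM in the other postSTC libraries. Rspo1, the relative of Rspo3, rose by 1.91 ± 0.49 (log2 units, ± SE, edgeR's adjusted p = 0.0207, or 0.0346 without postSTC7).

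Of 15 Wnt receptor genes, 4 rose and 2 fell. Fzd4, Fzd8 and Fzd2 rose by 1.40, 0.81 and 0.79 on the log2 scale (edgeR's adjusted p = 0.0157, 0.0118 and 0.0224). Each of them was also lower in preSTC than in preCTC, and was not called in postSTC against preCTC (edgeR's adjusted p = 0.565, 0.969 and 0.592). Fzd5, a Wnt receptor of the gut epithelium, fell to 33.4 ± 6.98 CPM in postSTC, against 56.0 ± 8.45 CPM in preSTC (SD, n = 4, edgeR's adjusted p = 0.00671). Of 15 Wnt target genes, 0 rose and 2 fell in edgeR, where 3 were higher at p under 0.05 before adjustment and 0 in DESeq2. Those that fell were Ephb2, a receptor that sorts crypt cells, and Cd44, a hyaluronan receptor, each with a log2 fold change of -0.63 (edgeR's adjusted p = 0.0110 and 0.0452, or 0.0846 for Cd44 without postSTC7). Axin2, a direct Wnt target, stood at 37.5, 35.1, 38.9 and 80.0 CPM in postSTC, against 44.9, 46.0, 47.2 and 51.0 CPM in preSTC. Axin2 was below preSTC in 3 postSTC libraries and above it in postSTC7, and edgeR's adjusted p was 0.969, or 0.0973 without postSTC7 with a log2 fold change of -0.35.

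Of 8 further BMP ligands, 4 rose (3 in DESeq2), with a median log2 fold change of 1.15. Bmp6 stood at 10.1, 12.5, 14.1 and 8.69 CPM in postSTC, against 5.01, 4.71, 5.16 and 4.43 CPM in preSTC. Its groups did not overlap (log2 fold change 1.23 ± 0.22, ± SE, edgeR's adjusted p = 0.00382). Bmp6 was also lower in postSTC than in preCTC, where it stood at 14.0 to 28.9 CPM (edgeR's adjusted p = 0.0155), so that its means had the same order as those of Bmp2. Bmp8a and Bmp8b rose by 1.98 and by 1.65 on the log2 scale. As closely related genes they may be uncertain as single genes, and how reads were shared between them was not tested. Gdf7 stood at 46.6 CPM in postSTC7 and at 1.42 to 1.62 CPM in the other postSTC libraries, and its call was lost without postSTC7 (edgeR's adjusted p = 0.0287, or 0.0891).

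Of 10 BMP antagonists other than Grem1, 3 rose and 1 fell. Chrdl1 and Nbl1, both secreted BMP-binding proteins, rose, with log2 fold changes of 2.13 ± 0.32 and 1.14 ± 0.14 (± SE, edgeR's adjusted p = 0.00209 and 7.88e-04). Nbl1 stood at 66.1, 94.1, 90.4 and 98.6 CPM in postSTC, against 34.5, 35.1, 43.1 and 45.9 CPM in preSTC, with no overlap. Bmper rose by 1.48, and Chrd, the gene of chordin, had a log2 fold change of -1.06 (edgeR's adjusted p = 0.0231 and 0.0181). Of 11 BMP receptor and Smad genes 2 rose, namely the receptors Bmpr2 and Bmpr1b. Bmpr1b stood at 49.3 CPM in postSTC7 and at 0.0970 to 0.266 CPM in the other postSTC libraries, and its log2 fold change was -0.03 without postSTC7. Of 9 BMP target genes, 1 rose, Id4, by 0.51 on the log2 scale (edgeR's adjusted p = 0.0425, or 0.0818 without postSTC7).

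Among hedgehog genes, coreceptors rose and no target gene was called in edgeR, the members Gli1 and Foxl1 included. Of 11 receptors and transducers 3 rose, all of them coreceptors that bind hedgehog ligands: Boc by 1.35 ± 0.25, Gas1 by 1.11 ± 0.27 and Cdon by 0.66 ± 0.20 (log2 units, ± SE, edgeR's adjusted p = 0.00459, 0.0173 and 0.0392). Gas1 stood at 30.7, 35.4, 38.4 and 37.8 CPM in postSTC, against 7.74, 16.4, 23.8 and 18.0 CPM in preSTC, with no overlap. Boc, Gas1 and Cdon averaged 26.7, 35.6 and 11.4 CPM in postSTC, against 21.4, 31.8 and 10.8 CPM in preCTC. They were not called between these groups (edgeR's adjusted p = 0.412, 0.723 and 0.824). All 3 were lower in preSTC than in preCTC (edgeR's adjusted p = 0.00622, 0.0168 and 0.0358). Of 5 hedgehog target genes other than Gli1 and Foxl1, 0 were called in edgeR (0 before adjustment at p under 0.05, 0 by DESeq2). Ptch1 stood at 36.5, 53.7, 40.5 and 55.3 CPM in postSTC, against 39.6, 46.0, 42.9 and 42.8 CPM in preSTC, a log2 fold change of 0.12 ± 0.15 (± SE, edgeR's adjusted p = 0.628). Hhip, a decoy receptor of hedgehog ligands, stood at 23.3 CPM in postSTC7 and at 3.72 to 10.8 CPM in the other postSTC libraries, with a log2 fold change of -0.04, or -0.75 without postSTC7 (edgeR's adjusted p = 0.967 and 0.114). Dhh, another hedgehog ligand, rose by 1.83 ± 0.51 at low levels, with 1.07 to 2.50 CPM in postSTC and 0.308 to 0.640 CPM in preSTC (± SE, edgeR's adjusted p = 0.0301).

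With the replicate block in the fit of 12 libraries, the calls of Bmp8a, Bmp8b, Bmper, Bmpr1b, Bmpr2, Cd44, Cdon, Chrd, Dhh, Fzd4, Gdf7, Id4 and Wif1 were lost, at edgeR's adjusted p from 0.0568 to 0.201. Those of Sfrp2, Sfrp4, Sfrp5, Rspo1, Wnt3, Wnt9a, Fzd2, Fzd5, Fzd8, Ephb2, Bmp6, Chrdl1, Nbl1, Boc and Gas1 held. In the blocked fit of the 8 libraries Sfrp2 was the named gene still called.

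**Figure D5:**
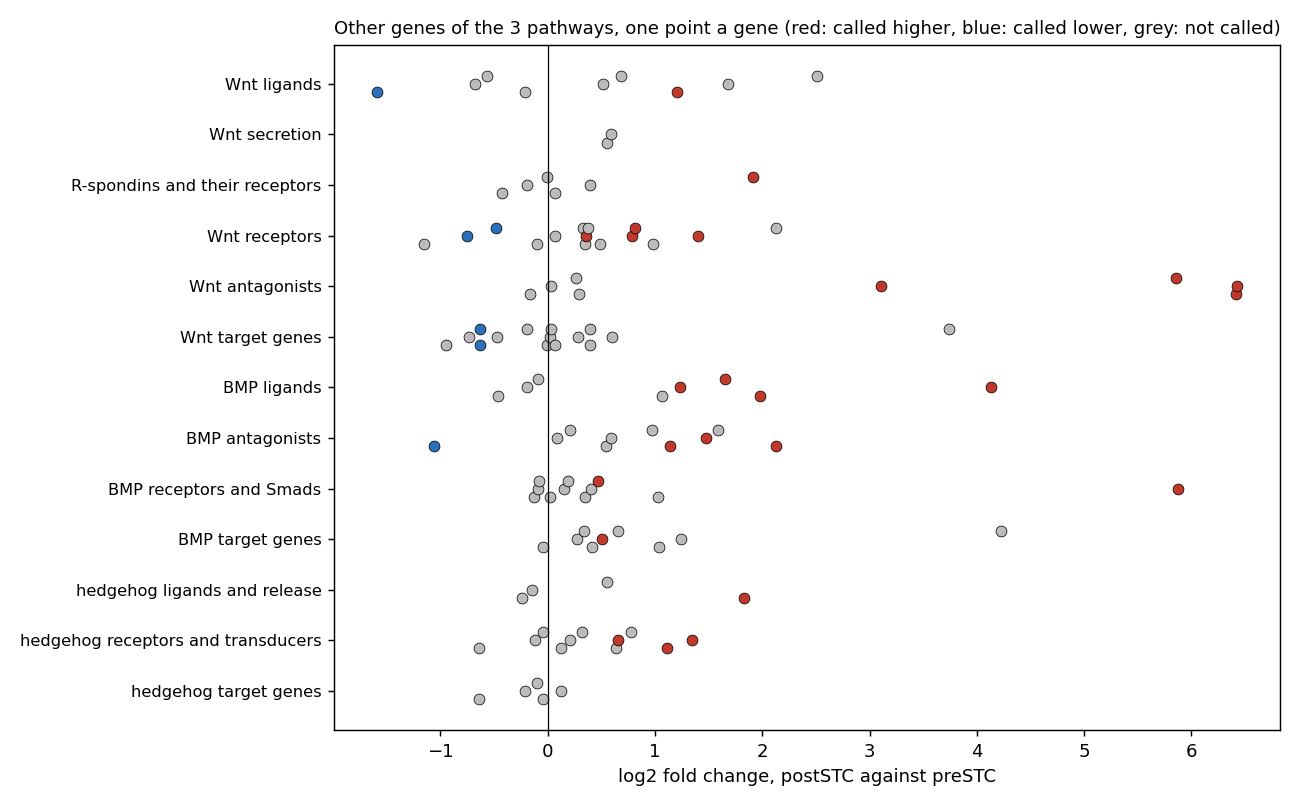
Log2 fold change in postSTC against preSTC (x axis) of the tested pathway genes other than the 10 members, grouped by role (y axis). Each point is a gene, drawn in every list that holds it, red where called higher, blue where called lower and grey where not called. The Wnt antagonists hold 4 called points, from 3.11 to 6.43, and the hedgehog targets hold none.

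In preSTC against preCTC, 10 of the 107 further pathway genes were higher and 36 lower (43.0%, beside 38.7% of all tested genes). In postSTC against preCTC, 10 were higher and 11 lower (19.6%, beside 16.6%). The medians of their log2 fold changes were 0.35 for postSTC against preSTC, 0.03 for postSTC against preCTC and -0.42 for preSTC against preCTC. These comparisons share libraries, so the values are set side by side and not tested against each other.

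With the fibroblast marker score as a covariate, 0 members were called in any of the 3 comparisons (edgeR). Before adjustment, 4 of all 10 members had a p under 0.05 in postSTC against preSTC, 2 in postSTC against preCTC and 4 in preSTC against preCTC. That fit called 8, 863 and 89 of all tested genes. The score of each preSTC library was below that of every library in the other groups, so part of what separates the groups is absorbed by it. In this fit the log2 fold change of Gli1 was -0.06, that of Grem1 -0.30 and that of Rspo3 2.17 in postSTC against preSTC (edgeR's adjusted p = 0.948, 0.858 and 0.232). Gli1 and Grem1 thus had values of opposite sign to those without the score, and Rspo3 a value of the same sign.

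For each member, the 3 genes whose pattern over the 12 libraries was most like its own were found among 14164 tested genes of at least 1 CPM on average. The measure was the root mean square difference of mean-centred log2 CPM, and all points share the library and its scaling. The measure is not scaled by how widely a gene varies, so it does not rank matches between members. Its median over the candidates was 0.494 for Gli1 and 1.011 for Bmp2. The smallest difference of all was that of Gli1, with Fgfr1 (0.133), Cd276 (0.145) and Parp6 (0.145), and the member nearest to Gli1 was Wnt5a (0.228). Ihh lay closest to Zdhhc13 (0.149), Vdr (0.153) and Inava (0.153), Vdr being the vitamin D receptor. Bmp2 lay closest to Capn13 (0.151), Hgfac (0.188) and Slc12a3 (0.265), and Bmp4 to Mmrn1 (0.180), Tcf21 (0.236) and Hepacam2 (0.245). The nearest member to Bmp4 was Foxl1 (0.314), while Bmp2 was no closer to any member than 0.611 (Wnt5a). Wnt5a lay closest to Aasdh, Fam171a1 and Ptpdc1 (0.173 to 0.185), Wnt2b to Flt4, Pdzd4 and Wscd1 (0.211 to 0.245), and Foxl1 to Syt13, Hist3h2ba and Nr3c2 (0.249 to 0.316). Grem1 lay closest to Ecscr, Plekha1 and Cnrip1 (0.25 to 0.266) and Rspo3 to Adarb1, Gpc1 and Grik5 (0.288 to 0.317). Shh, at counts near 0, had no close match, and its nearest gene, Chrdl2, differed by 0.800.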

How the data were processed

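Whole read counts per gene were deposited by the authors, 1 column per library with no pooling. FPKM values were deposited beside them, computed by the authors from the same counts and used here only for levels per length. Tools listed in the submitters' processing notes are HTSeq, HISAT2 and fastp, with no versions, and the rat build is mRatBN7.2. The series' design text instead describes a pig genome and other tools and was not used. Whether counting used strand is not given in the sources used here. Promoters come from RefSeq's GRCr8 table, another assembly than that of the counts.

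R 4.3.3 with edgeR 4.0.16 was used (limma 3.58.1, DESeq2 1.42.0 as an alternative). Counts of 15704 genes (83.8%) passed filterByExpr. Library sizes were scaled by TMM, and all 12 libraries were fitted together by quasi-likelihood with no term but the group (F-test, Benjamini-Hochberg adjustment over all genes tested, threshold 0.05). Standard errors are the size of the log2 fold change over root F. Intervals at 95% use the t distribution of that fit. The fit was tested on simulated data. Log2 CPM has a prior count of 2. PCR reads are not independent molecules, so the floor of 3 counts covers counting error only. Replicates of a group differed by more than sampling noise (chi-square per gene of at least 32.3).

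The members and gene lists were chosen with earlier results of these data known. Named are all 10 members, up to 4 called genes of each pathway list by size of change in postSTC against preSTC, Wnt2, Ptch1, Hhip and Axin2, and the 3 genes most like each member. Another gene that the rule names is not reported here. The deviations of same-numbered libraries from their group means were correlated across genes. In postSTC and preSTC the values were 0.236, 0.158 and 0.168 (numbers 1, 5 and 7). They were 0.22, -0.016 and 0.054 in postSTC and preCTC, and 0.222, -0.028, 0.171 and 0.145 in preSTC and preCTC (numbers 1, 5, 7 and 9). Libraries of unlike number were not correlated, so whether the numbers pair libraries is not known. The main fit has no term for them, and the replicate block is given as an alternative. Alternatives were other scaling, DESeq2, no filter, a fit of 8 libraries, the replicate block, the fibroblast score and leaving out each library.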

Additional observations from a re-analysis of the deposited data

Results flagged for a closer look

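In the 29 groups of 4 libraries with any spread, 1 value of a member lay far from the others of its group, where chance flags about 1 in 20. Shh stood at 0.985 CPM in postSTC7, against 0 to 0.133 CPM in the other postSTC libraries. The gap to the nearest was 0.865 of the whole range (past Dixon's critical value at 95% for 4 values). These values rest on 0, 2, 5 and 22 reads, and postSTC7 is among the libraries through which Shh passed the count filter. The flag is therefore a description of few reads and not a test of Shh. In that library 42.9% of the counts came from accessory gland genes, and their part in the Shh reads was not tested.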

How the results depend on the processing

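Counts of members called in edgeR are over all 10 members here, Shh included. Because Shh passed the count filter only through libraries where it is high, its calls are a description. Without Shh, edgeR's main fit called 1, 2 and 3 of the other 9 members. Relative log expression scaling and no filter on low counts left the number of members called as it was, 1 in postSTC against preSTC, 2 in postSTC against preCTC and 4 in preSTC against preCTC. DESeq2 called 4, 5 and 5 members, or 3, 5 and 4 without Shh, beside 3889, 3534 and 6858 of all genes. A fit of the 8 libraries compared called 1 (Bmp2, not Rspo3), 1 and 6, beside 1928, 1455 and 7383 of all genes. With the replicate block in the fit of 12 libraries, 1, 0 and 5 members were called, beside 1746, 1399 and 5729 of all genes. With the block in the fit of the 8 libraries, 0, 0 and 6 were called, beside 66, 151 and 7035 of all genes. At an unadjusted p under 0.05 in edgeR, the blocked fits had 4, 6 and 6 members, and 2, 1 and 7. In postSTC against preSTC, Rspo3 kept its call with the block in the fit of 12 libraries. The fit of 8 libraries did not call Rspo3 with or without the block, and there the block removed the call of Bmp2. In postSTC against preCTC, the calls of Bmp2 and Ihh were lost with the block in the fit of 12 libraries. Beside the main calls, blocked fits of preSTC against preCTC called Rspo3, Bmp4 and Ihh. The unblocked fit of 8 libraries called 6 members there, as many as the blocked one. Whether the numbers that preCTC shares with the other groups pair libraries is not known. With the fibroblast score 0 members were called in each comparison. Leaving out single libraries gave 0 to 3, 1 to 4 and 3 to 7 members, Shh included. These stand beside 1609 to 3684, 1780 to 3123 and 5037 to 7258 of all genes called. In postSTC against preSTC the count was 0 without preSTC1, preSTC5 or preSTC9, 2 without postSTC1 or preCTC5 and 3 without postSTC7. In postSTC against preCTC it was 1 without postSTC5, preCTC1, preCTC7, preCTC9 or any preSTC library, and 4 without preCTC5. In preSTC against preCTC it was 7 without postSTC7, or 6 of the 9 members other than Shh. The 30 further pathway genes called in postSTC against preSTC were 26 without postSTC7, 18 with the block in 12 libraries and 1 in 8, settings added after seeing the data.

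The direction reversed for members that were not called or lost their call. Grem1 in postSTC against preCTC was -0.08 and -0.02 with the block (12 and 8 libraries) and -0.05 to 0.48 without single libraries. Wnt2b in postSTC against preSTC was -0.35 to 0.21, and Ihh -0.44 to 0.02, without single libraries. With the fibroblast score, Grem1 and Gli1 were -0.30 and -0.06 in postSTC against preSTC, Wnt2b and Gli1 0.40 and 0.12 in postSTC against preCTC, and Bmp4, Grem1, Wnt2b, Foxl1 and Gli1 1.75, 1.06, 1.79, 0.92 and 0.18 in preSTC against preCTC. The score does not overlap between the groups, so that fit cannot tell the score and the group apart, and causes were not tested. Shh is limited by depth.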
